A study of Mus musculus with 4 samples.

Results

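The simple epithelial keratins are the keratin genes of single-layered epithelia, here Krt7, Krt8, Krt18, Krt19, Krt20 and Krt23. They were chosen by gene symbol in the mm9 exon annotation, and all 6 were found among the 20864 genes to which exon blocks were assigned. The data were 4 SOLiD RNA-Seq libraries from total tissue of C57BL/6 mice, which the study describes as frozen tissue of animals aged 9 to 10 weeks. One small intestine library and one colon library were cDNA fragmented, made from polyadenylated RNA after SMART full-length cDNA synthesis. The other pair was made with the SOLiD Whole Transcriptome Analysis Kit from RNA labelled as ribosomal RNA-depleted, which was fragmented before adaptor ligation and keeps the strand. The methods of the study describe polyadenylated RNA for its RNA fragmented libraries, but the read totals it lists for those are not those of this pair (36419942 and 37466674 reads), whereas its totals for the cDNA fragmented libraries are those of the files. Those methods may therefore concern other libraries, and the RNA selection given by the labels is used here. Per the methods of the study, the small intestine piece was jejunum and the colon piece was distal colon. The study speaks of both tissues as taken from the same animals, but the labels tie no library to an animal and do not say whether the protocols shared animals. The libraries held 22484041 (small intestine) and 24798934 (colon) uniquely placed reads in the cDNA fragmented protocol, and 2035386 and 3478387 in the ribosomal RNA-depleted protocol. With 1 library for each tissue in each protocol there were no replicates, and no test between tissues was run. All intervals are 95% intervals of the read counts. They treat each read as a separate molecule and hold no spread between animals. Reads copied by PCR are not separate molecules, so the intervals can be too narrow even for counting error.

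Keratins are the intermediate filament proteins of epithelial cells. Their filaments are built from heterodimers of a type I and a type II chain, so a cell needs both kinds, and unpaired chains are degraded. Krt8 and Krt7 are type II chains, whereas Krt18, Krt19, Krt20 and Krt23 are type I. In intestinal epithelium Krt8 is the main type II partner, Krt18 and Krt19 are its common type I partners, and Krt20 is known as a marker of differentiated villus and surface cells. Krt7 is better known from ducts and the bladder lining than from gut absorptive cells.

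All 6 genes carry the conserved start of the central helical rod in their first exon block, and it is shown here because it is a stretch that all members share in part, in which a short read of Krt7 is hard to place. The windows are coding sequence of 36 bases from mm9, 5′ to 3′ on the gene's strand, and capitals mark the 13 bases shared by all 6 genes.
Krt7, chr15:101243172-101243207, plus strand: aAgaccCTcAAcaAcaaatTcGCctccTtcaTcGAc
Krt8, chr15:101834332-101834367, minus strand: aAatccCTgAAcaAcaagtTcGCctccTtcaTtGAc
Krt18, chr15:101858938-101858973, plus strand: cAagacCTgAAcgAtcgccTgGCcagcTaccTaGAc
Krt19, chr11:100006877-100006912, minus strand: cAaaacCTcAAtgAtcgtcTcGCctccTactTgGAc
Krt20, chr11:99299133-99299168, minus strand: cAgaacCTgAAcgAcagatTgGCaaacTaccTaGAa
Krt23, chr11:99354115-99354150, minus strand: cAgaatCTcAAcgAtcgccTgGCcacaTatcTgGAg
The type II pair Krt7 and Krt8 shared 31 of the 36 bases. Krt20 shared 27, 22 and 24 bases with the type I genes Krt18, Krt19 and Krt23, and 23 and 21 with the type II genes Krt7 and Krt8. Of the 22 read start positions of Krt7 that overlapped its window by at least 18 bases, 19 had another exon place within 3 color mismatches, against 2 of 22 for Krt8 and 0 of 36 for each type I gene. Such a match holds in both directions, so few of the 19 Krt7 positions can have their near copy in another member. Near copies also lay outside this window, with 38 of 187 start positions in block 7 of Krt7, 39 of 187 in block 7 of Krt8 and 65 of 123 in block 3 of Krt19.

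Levels are given as RPKM, the uniquely placed reads per kilobase of a gene's exon blocks and per 1000000 uniquely placed reads of the library, which allows genes of different length to be compared. Krt20 led the family in the cDNA fragmented libraries and Krt8 in ribosomal RNA-depleted small intestine. In ribosomal RNA-depleted colon Krt8 and Krt19 were the highest, with overlapping intervals (2446 to 2525 and 2397 to 2486 RPKM). Between tissues, Krt20 was higher in small intestine in both protocols, Krt8, Krt18 and Krt19 were higher in colon in both, and Krt7 was higher in colon beyond counting error in the cDNA fragmented pair. The counting intervals of the Krt23 ratio, and of the Krt7 ratio in the ribosomal RNA-depleted pair, included 1. The labelled tissues held their own markers: 6 of 6 small intestine markers (among them Apoa4) and 6 of 6 colon markers (among them Car1) were at least 3-fold higher in the tissue they mark in both protocols. These markers were chosen with earlier results of these data known, so this is not an independent check of the labels.

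**Figure D1:**
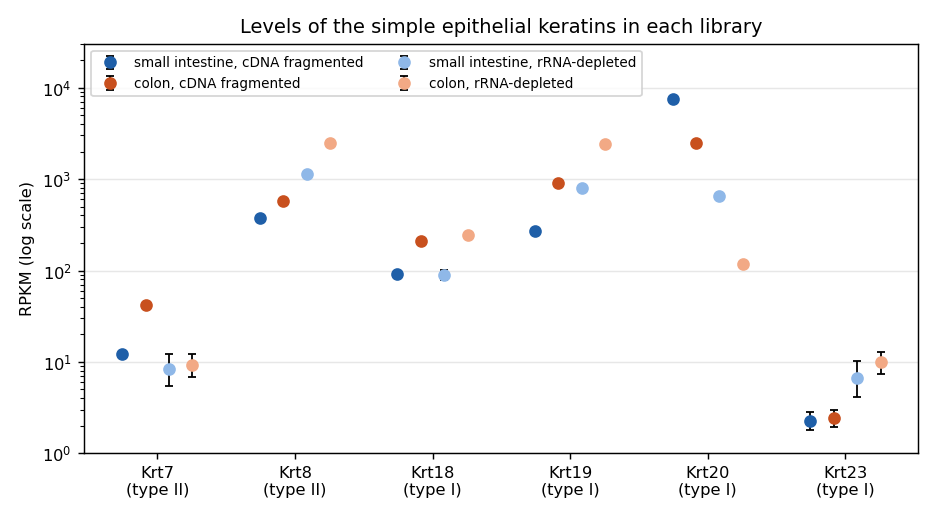
RPKM (log scale) of the 6 keratins in each of the 4 libraries, with 95% Poisson intervals of the read counts. Krt20 ran from 7525 in cDNA fragmented small intestine to 116 in ribosomal RNA-depleted colon, whereas Krt23 stayed between 2.28 and 9.90.

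Among the type II genes, Krt8 (chromosome 15, 101827142 to 101834773, minus strand, 9 exon blocks of 1805 bases) encodes the chain on which the intestinal keratin network depends. Krt8 stood at 375 RPKM in small intestine and 580 RPKM in colon of the cDNA fragmented protocol, from 15206 and 25941 reads. In the ribosomal RNA-depleted protocol it stood at 1127 and 2485 RPKM, from 4142 and 15604 reads. Colon was the higher tissue in both pairs, 1.55-fold (interval 1.52 to 1.58) and 2.20-fold (interval 2.13 to 2.28). By level, Krt8 ranked 271 and 194 among all genes in cDNA fragmented small intestine and colon, and 36 and 16 in those depleted of ribosomal RNA.

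Krt7 (chromosome 15, 101242834 to 101258236, plus strand, 9 exon blocks of 1585 bases), the other type II gene, was far lower. Its levels were 12.1 and 42.0 RPKM in cDNA fragmented small intestine and colon, from 431 and 1652 reads, and 8.37 and 9.25 RPKM in the ribosomal RNA-depleted pair, from 27 and 51 reads. The colon level was 3.48-fold higher in the cDNA fragmented pair (interval 3.12 to 3.87), whereas the ratio was 1.11 in the ribosomal RNA-depleted pair with an interval of 0.680 to 1.83. On the log2 scale, the tissue difference was lower by 1.65 in the ribosomal RNA-depleted pair, and the value for ribosomal RNA-depleted minus cDNA fragmented had a counting interval of -2.34 to -0.96. The high sample was thus the cDNA fragmented colon alone, and the other 3 lay between 8.37 and 12.1 RPKM.

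Among the type I genes, Krt18 (chromosome 15, 101858647 to 101862457, plus strand, 7 exon blocks of 1400 bases) encodes the usual type I partner of Krt8 and its neighbour on the chromosome. Its levels were 92.3 and 210 RPKM in cDNA fragmented small intestine and colon and 90.2 and 246 RPKM in the ribosomal RNA-depleted pair. Both protocols thus gave nearly the same level of Krt18 in a tissue. Colon was higher 2.27-fold (interval 2.18 to 2.38) and 2.73-fold (interval 2.38 to 3.14).

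Krt19 (chromosome 11, 100002126 to 100007233, minus strand, 6 exon blocks of 1373 bases) encodes the shortest of the keratin chains, which lacks most of the tail domain. It stood at 271 and 895 RPKM in the cDNA fragmented pair, from 8363 and 30465 reads, and at 796 and 2441 RPKM in the ribosomal RNA-depleted pair, from 2225 and 11657 reads. The colon level was 3.30-fold (interval 3.22 to 3.38) and 3.07-fold (interval 2.93 to 3.21) that of small intestine. Krt19 was the member with the most similar size of difference in both protocols among those outside counting error. The counting interval of the difference between its log2 ratios, 1.72 and 1.62, was still negative throughout (-0.11, interval -0.18 to -0.03, ribosomal RNA-depleted minus cDNA fragmented). Without the 10 most-read start points of each library the ratio was 3.31 in the cDNA fragmented pair and 3.18 in the ribosomal RNA-depleted pair.

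Krt20 (chromosome 11, 99289717 to 99299467, minus strand, 8 exon blocks of 1930 bases), the chain of differentiated epithelial cells, had the opposite direction. Its levels were 7525 RPKM in cDNA fragmented small intestine and 2503 RPKM in cDNA fragmented colon, from 326537 and 119806 reads. In the ribosomal RNA-depleted pair they were 653 and 116 RPKM, from 2567 and 782 reads. Small intestine was higher 3.01-fold (interval 2.99 to 3.03) and 5.61-fold (interval 5.18 to 6.09). Krt20 ranked 9 of all 20864 genes in cDNA fragmented small intestine and 26 in cDNA fragmented colon, but 71 and 576 in the ribosomal RNA-depleted libraries.

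Krt23 (chromosome 11, 99339287 to 99354424, minus strand, 8 exon blocks of 1539 bases) was the lowest member in the cDNA fragmented libraries. It had 79 and 92 reads there, 2.28 and 2.41 RPKM, and 21 and 53 reads in the ribosomal RNA-depleted pair, 6.70 and 9.90 RPKM. The colon to small intestine ratios, 1.06 (interval 0.773 to 1.44) and 1.48 (interval 0.876 to 2.58), were not distinguishable from 1 at this depth. The ribosomal RNA-depleted ratio moved with the positions counted, to 2.71 without the last exon block and 5.27 without the 10 most-read start points of each library. Those start points held 85.7% of the 21 small intestine reads and 49.1% of the 53 colon reads, so few reads were left for the last value.

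**Figure D2:**
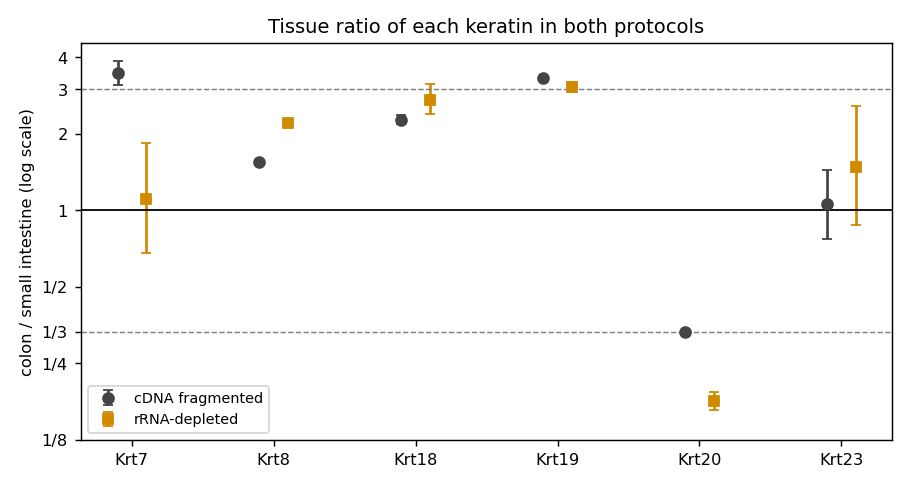
Colon to small intestine ratio (log scale) of each keratin in both protocols, with 95% intervals from the read counts; the dashed lines mark 3-fold in either direction. Krt20 lay below 1 in both protocols, Krt8, Krt18 and Krt19 lay above 1 in both, and Krt7 lay at 3.48 in one protocol and 1.11 in the other.

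A tissue difference was also scored by a measure that divides the RPKM of a tissue by the RPKM of the other plus 1 and asks for at least 3. The form of this measure is the study's, which applied it to FPKM per transcript, whereas here it was applied to the RPKM of exon blocks. By this measure 2 of 6 keratins, Krt7 (3.21) and Krt19 (3.29), were higher in colon in the cDNA fragmented pair, where 3.52% of the 15023 genes with at least 10 reads were. Krt20 was the 1 keratin higher in small intestine in that pair, against 3.01% of all such genes, and at 3.005 it lay just inside the limit. In the ribosomal RNA-depleted pair 1 of 6 keratins, Krt19 (3.06), was higher in colon, against 7.37% of 13222 genes, and Krt20 (5.56) was higher in small intestine, against 4.16%. Krt18 in the ribosomal RNA-depleted pair, at 2.70, was the nearest value outside the limit. The median log2 colon to small intestine ratio of the 6 keratins was 0.91 in the cDNA fragmented pair and 0.85 in the ribosomal RNA-depleted pair, beside 0.37 and 0.41 over all genes with at least 10 reads. The typical gene was thus also higher in colon on this scale. Another scale was set by the median ratio of the genes with reads in both libraries of a pair (15850 and 14282 genes). On it the log2 ratios of all members are lower by 0.40 and 0.34. The ratio of Krt23 in the cDNA fragmented pair and that of Krt7 in the ribosomal RNA-depleted pair then pass below 1. On that scale 0 of 6 keratins stay 3-fold higher in colon, beside 2.15% and 4.33% of all genes, so this count is near the share. Krt20 stays 3-fold higher in small intestine in both pairs, beside 3.80% and 5.45% of all genes.

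Since the tissue pieces were bulk samples, fewer cells of a type and less RNA per cell cannot be told apart. Of the 14 epithelial genes with enough reads, 2 were higher in colon and 2 in small intestine by the 3-fold measure in the cDNA fragmented pair, and 3 and 1 in the ribosomal RNA-depleted pair. The shares over all genes were 3.52% (colon) and 3.01% (small intestine) in the first pair and 7.37% and 4.16% in the second. Lgals4, a galectin of gut epithelium, was at 5775 and 8406 RPKM in cDNA fragmented small intestine and colon and at 1140 and 1867 RPKM in the other pair. Vil1, which encodes the microvillus protein villin, was higher in small intestine 3.67-fold and 3.36-fold, whereas Cdx1, an intestinal homeobox gene, was higher in colon 4.14-fold and 4.94-fold. Of the 14 ratios, 10 lay above 1 in the cDNA fragmented pair and 8 in the ribosomal RNA-depleted pair. Scaled to the geometric mean of this epithelial list, Krt19 was 2.18-fold and 2.45-fold higher in colon, Krt8 was 1.02-fold and 1.76-fold higher in colon, and Krt20 was 4.55-fold and 7.02-fold higher in small intestine. The 10 smooth muscle genes, which mark the other main tissue of the gut wall, summed to 367 and 1333 RPKM in cDNA fragmented small intestine and colon and to 314 and 2576 RPKM in the ribosomal RNA-depleted pair, with 6 of 10 higher in colon in each pair.

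The summed RPKM of the 6 keratins was 8277 (small intestine) and 4232 (colon) with cDNA fragmentation, but 2682 and 5308 with ribosomal RNA depletion, so the order of the tissues differed with the protocol. Krt20 made up 90.9% and 59.2% of that sum in cDNA fragmented small intestine and colon and 24.4% and 2.19% in the other protocol. Krt8 and Krt19 took its place, with 46.8% and 45.98% of the sum in the ribosomal RNA-depleted colon. The type I genes together exceeded the type II genes 20.4-fold and 5.81-fold in cDNA fragmented small intestine and colon, and 1.36-fold and 1.13-fold in the ribosomal RNA-depleted libraries. With Krt20 left out, the type I sum was 0.945, 1.78, 0.786 and 1.08 times the type II sum in the same order of libraries, so apart from Krt20 the RNA of the 2 chain types was present at levels within 2-fold of each other.

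**Figure D3:**
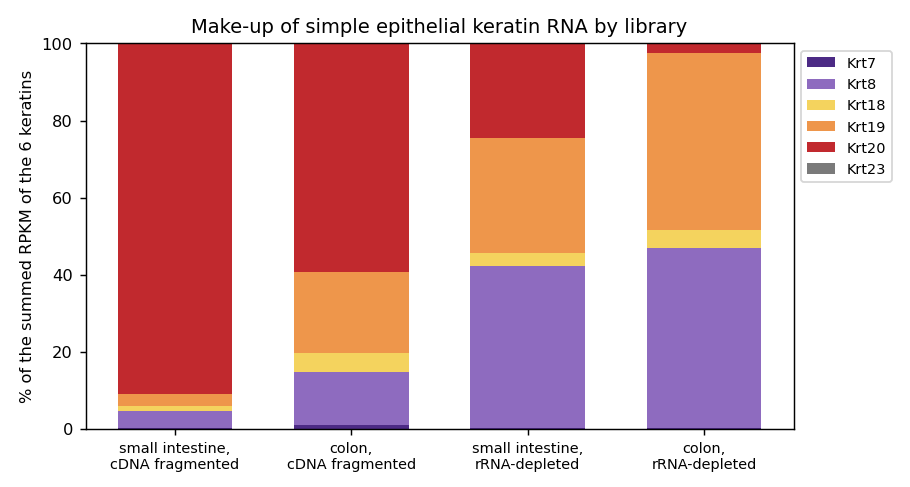
Share of each keratin in the summed RPKM of the 6 genes, in percent, for each library. The Krt20 share was 90.9% in small intestine and 59.2% in colon in the cDNA fragmented protocol and 24.4% and 2.19% in the ribosomal RNA-depleted protocol.

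The levels of Krt20, Krt8 and Krt23 differed more between the protocols than between the tissues. Krt20 was 11.5-fold higher in the cDNA fragmented than in the ribosomal RNA-depleted library of small intestine (interval 11.1 to 11.98) and 21.5-fold higher in colon (interval 20.03 to 23.1). Krt7 was 4.54-fold higher in cDNA fragmented colon (interval 3.44 to 6.13) and 1.45-fold higher in cDNA fragmented small intestine (interval 0.979 to 2.22). Krt8 went the other way, 3.01-fold and 4.29-fold higher in the ribosomal RNA-depleted libraries, as did Krt19 (2.94-fold and 2.73-fold) and Krt23 (2.94-fold and 4.11-fold). For comparison, the median log2 ratio of cDNA fragmented to ribosomal RNA-depleted over all genes was -0.37 in small intestine and -0.51 in colon. The log2 value of Krt20, 3.53 in small intestine and 4.42 in colon, exceeded that of 97.7% and 99.1% of genes. Which step of the protocols goes with these differences was not tested.

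Reads were then followed along the transcripts. In the cDNA fragmented libraries the reads of Krt8 gathered towards the 3′ end, with 77.1% (small intestine) and 83.2% (colon) 3′ of the midpoint of the exonic length and 57.5% and 60.5% in the last exon block. In the ribosomal RNA-depleted libraries 61.8% and 56.8% of the Krt8 reads lay 3′ of the midpoint. Krt20 was covered evenly in the cDNA fragmented libraries, with 50.7% and 48.1% of reads 3′ of the midpoint, and more towards the 5′ end in the ribosomal RNA-depleted libraries, with 28.5% and 32.1%. Krt18 and Krt19 lay between, with 62.02% to 65.2% of reads 3′ of the midpoint in the cDNA fragmented libraries.

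**Figure D4:**
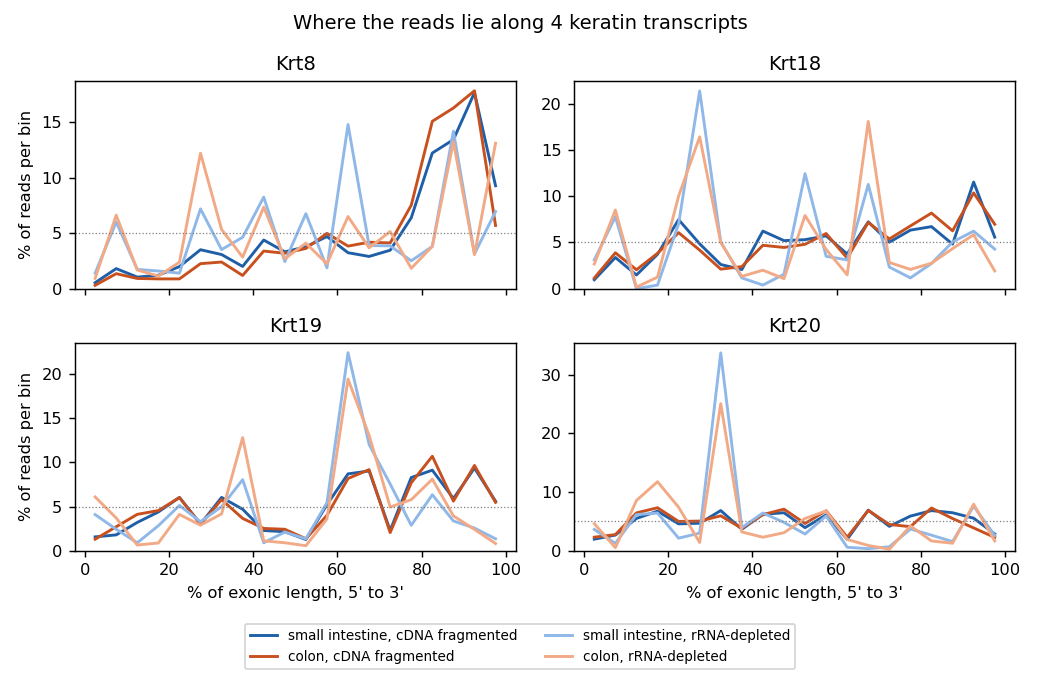
Share of reads (percent) in each of 20 equal bins along the exonic length, 5′ to 3′, for Krt8, Krt18, Krt19 and Krt20 in the 4 libraries; the dotted line is the 5% of an even spread. The cDNA fragmented lines rise towards the 3′ end for Krt8, while the ribosomal RNA-depleted lines have higher peaks, some in both tissues (bin 7 of Krt20, 33.7% and 25.1%) and some mainly in one (bin 13 of Krt8, 14.8% in small intestine and 6.50% in colon).

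Reads of the ribosomal RNA-depleted libraries were concentrated on few start points. The 10 most-read start points held 41.1% and 37.8% of the Krt8 reads in ribosomal RNA-depleted small intestine and colon, 33.5% and 31.05% of the Krt19 reads and 32.6% and 30.7% of the Krt20 reads, against 1.01% to 3.44% for these 3 genes in the cDNA fragmented libraries. The most-read start points of Krt19 and Krt20 are shown as the 35 bases covered, because this single position held 7.39% to 14.9% of the gene's reads in the ribosomal RNA-depleted libraries.
Krt19, chr11:100002886-100002920, minus strand, coding, exon block 4: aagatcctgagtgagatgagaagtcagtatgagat
Krt20, chr11:99294207-99294241, minus strand, coding, exon block 3: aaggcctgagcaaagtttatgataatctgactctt
The Krt20 position had 383 of 2567 reads (14.9%) in small intestine and 89 of 782 (11.4%) in colon of the ribosomal RNA-depleted protocol, and ranked first in both. In the cDNA fragmented libraries the same position had 86 and 21 reads, 0.0263% and 0.0175%. The Krt19 position had 187 (8.40%) and 862 (7.39%) reads in the ribosomal RNA-depleted libraries. Both have a single place in the mm9 genome and no near copy in the exons. The most-read Krt8 position, not shown, had 337 (8.14%) and 1398 (8.96%) reads in these libraries, but it has 2 places in the genome. The 10 most-read start points of each gene were also left out, chosen in each library by itself, so the positions could differ between tissues. The ribosomal RNA-depleted colon was then still the higher library for Krt8 and Krt19, at 2.32-fold and 3.18-fold, and small intestine for Krt20, at 5.46-fold. Each start point was also counted once, however often it was read, relative to all start points of the library (781641 and 1337413 in this pair). The colon to small intestine ratios of Krt8 and Krt19 were then 0.899 and 0.953 in this pair, and 1.001 and 1.13 in the cDNA fragmented pair. In the cDNA fragmented libraries most positions of Krt8 were taken, 2352 and 2466 start points with 1499 positions on each strand. Far fewer were taken in the ribosomal RNA-depleted libraries, 537 and 826 for Krt8 and 379 and 618 of 1169 positions for Krt19. Before scaling, colon thus had more start points for both genes. A position already taken adds nothing when read again, and both genes had 18.9 reads per start point in that colon library. The measure therefore does not decide the direction of either gene, and the cause of the ratios below 1 was not tested.

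Almost every read of the members in the ribosomal RNA-depleted libraries lay on the sense strand: 1 of the 27 Krt7 reads in small intestine was antisense, and no antisense read was found for the other 5 genes in either tissue nor for Krt7 in colon. The cDNA fragmented protocol does not keep the strand, and 40.7% to 54.4% of the members' reads were on the sense strand there.

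Each exon block gives its own tissue ratio. Krt20 was higher in small intestine in all 8 exon blocks of the cDNA fragmented pair (2.58-fold to 3.38-fold) and in the 7 blocks with at least 10 reads in the ribosomal RNA-depleted pair (3.34-fold to 15.4-fold). Krt18 was higher in colon in 7 of 7 blocks of both pairs (1.84-fold to 2.57-fold and 1.84-fold to 3.67-fold), and Krt19 in 6 of 6 (2.66-fold to 3.80-fold and 1.37-fold to 4.97-fold). The ratio of Krt8 changed along the gene in the cDNA fragmented pair. Its first 3 blocks gave 1.02, 1.08 and 0.929, with intervals that included 1 in each, whereas block 7 gave 2.01 (interval 1.87 to 2.16) and the last block 1.63 (interval 1.59 to 1.67). In the ribosomal RNA-depleted pair, Krt8 was higher in colon in 9 of 9 blocks, from 1.26-fold in block 7 to 3.54-fold in block 2. The order of the blocks thus differed between the protocols. Many Krt8 start positions had an exact copy elsewhere in the mm9 genome. In blocks 1 to 3 these were 230 of 411, 140 of 175 and 27 of 27. In blocks 7 and 9 they were 134 of 187 and 289 of 389. The part of such copies in the block ratios was not tested.

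**Figure D5:**
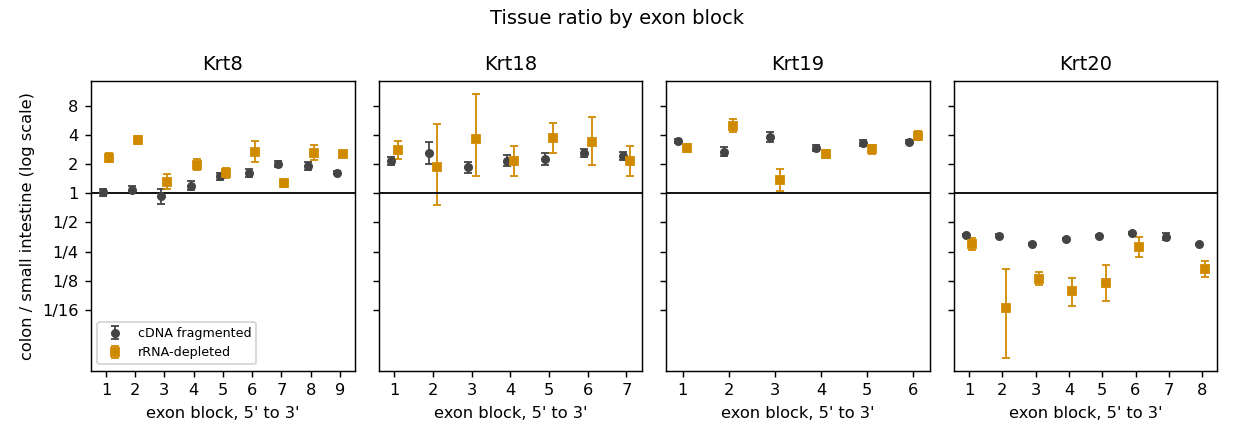
Colon to small intestine ratio (log scale) in each exon block with at least 10 reads, 5′ to 3′, for Krt8, Krt18, Krt19 and Krt20, with 95% intervals from the read counts. All blocks of Krt20 lie below 1 and all blocks of Krt18 and Krt19 above it, while the first 3 cDNA fragmented blocks of Krt8 lie at 0.929 to 1.08.

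How far a read can be placed differed between the members. Krt20 and Krt23 had no 35-base start position with a near copy in the exons or an exact copy elsewhere in the genome. Of the 1279 start positions of Krt7, 91 (7.11%) had a near copy in exons of other genes. The nearest copies lay in Krt8 and, outside the members, in Krt73, Krt79, Krt4, 4732456N10Rik, Krt84, Krt80 and Krt86. For Krt19, 85 of 1169 (7.27%) had a near copy, in the type I genes Krt13, Krt14, Krt15, Krt17 and Krt42. Krt8 was the exception, since 963 of its 1499 start positions (64.2%) had an exact copy elsewhere in the mm9 genome outside the exon reference, and 87 of 1162 (7.49%) did for Krt18. In the deposited matching, uniqueness was judged among exons and junctions, so reads from such copies could have been counted as Krt8, whereas the study describes matching to the whole genome. At the 516 Krt8 start positions with no copy, the colon to small intestine ratio was 1.66 and 1.97 in the cDNA fragmented and ribosomal RNA-depleted pairs, the same direction as over all positions. In ribosomal RNA-depleted colon the positions with no copy gave 2998 reads per kilobase and per 1000000 for Krt19 and 2104 for Krt8, and in small intestine 977 and 1067.

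The other keratins had few reads. Of 45 other keratin genes, 20 had no read in any library and 4 reached 1 RPKM in at least 1 library, namely Krt10, Krt12, Krt17 and Krt222. They summed to 4.66 and 9.06 RPKM in cDNA fragmented small intestine and colon and to 5.84 and 6.28 RPKM in the other pair. The highest was Krt10, a chain of cornifying epidermis, at 2.06, 3.35, 1.64 and 1.24 RPKM in the same order. Krt17 had 1 read in cDNA fragmented small intestine and 53 in colon, and 0 and 5 in the ribosomal RNA-depleted pair. At such levels the 3-fold measure can hardly be reached, and nothing is read from it for these genes.

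Cells from neighbouring organs and linings also express simple keratins, and their markers differed between these libraries. The 14 pancreas genes summed to 336 RPKM in small intestine and 714 RPKM in colon of the cDNA fragmented protocol but to 3076 and 57.4 RPKM in the ribosomal RNA-depleted protocol. Of 11 with enough reads, 8 were higher in colon in the cDNA fragmented pair (3.52% of all genes). In the ribosomal RNA-depleted pair 9 were higher in small intestine (4.16% of all genes). The sums without Clps, the colipase gene, were 10.9 and 567 RPKM and 2962 and 46.9 RPKM, since Clps alone was at 325 and 148 RPKM in the cDNA fragmented pair and at 114 and 10.5 RPKM in the other. Among the rest Cela2a, an acinar elastase, had 0 and 5503 reads in the first pair and 1312 and 8 in the second, while Amy2a5 and Ptf1a had none in any library. Acinar cells are known for Krt8 and Krt18 and pancreatic ducts for Krt7 and Krt19. Sox9, placed in this list for ducts, was at 8.59 and 17.96 RPKM in cDNA fragmented small intestine and colon and at 9.01 and 27.7 RPKM in the other pair. Sox9 is part of the sums without Clps, and made up most of them in cDNA fragmented small intestine (10.9 RPKM) and ribosomal RNA-depleted colon (46.9 RPKM). Its order over the libraries was not that of these sums, and no amount of duct RNA is read from it. Onecut1 had 3 reads, all in ribosomal RNA-depleted small intestine. The part of pancreatic RNA in the keratin ratios was not tested.

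The library that held the most Krt7, the cDNA fragmented colon, also held the most of some lining markers. The 4 urothelial genes summed to 14.7 and 31.5 RPKM in the cDNA fragmented pair and to 4.26 and 9.10 RPKM in the ribosomal RNA-depleted pair, and Upk1a went from 47 to 745 reads between small intestine and colon of the first pair. Upk1b and Upk3a were lower in colon there, with 427 and 346 reads and with 59 and 8 reads, the median log2 ratio of the 3 genes with enough reads was -0.44, and Upk2 had no read in any library. The 12 squamous genes of anal-type epithelium summed to 158 and 203 RPKM and to 150 and 148 RPKM. Perp and Sfn, which many epithelia express, made up most of these sums, and without them they were 2.06 and 32.1 RPKM and 4.45 and 13.9 RPKM. Of 4 tested genes 1, Sprr1a (34 and 623 reads, and 7 and 37 in the other pair), was higher in cDNA fragmented colon by the 3-fold measure, beside 3.52% of all genes. The basal cell regulator Trp63 had 0, 2, 0 and 1 reads in the 4 libraries. The 7 mesothelial genes found summed to 13.6 and 13.5 RPKM and to 8.80 and 12.3 RPKM, with none past the 3-fold measure. Upk1b, which is also one of the urothelial genes, made up most of the cDNA fragmented sums, and without it they were 2.87 and 5.64 RPKM, beside 6.57 and 8.54 RPKM in the other pair. Msln, which encodes the surface protein mesothelin, had 45 and 175 reads in the cDNA fragmented pair (3.53-fold) and 5 and 16 in the other (1.87-fold). Genes of goblet cells, which belong to the gut epithelium itself, were also highest in cDNA fragmented colon. The 6 found summed to 16363 and 38336 RPKM in the cDNA fragmented pair and to 4544 and 10535 RPKM in the other. By the 3-fold measure 1 and 2 of these 6 were higher in colon, beside 3.52% and 7.37% of all genes. The part of any of these cells in the Krt7 value was not tested.

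Keratin filaments are anchored at desmosomes and hemidesmosomes, and 14 anchor and desmosome genes were found. In the cDNA fragmented pair 0 of them passed the 3-fold measure in either direction, beside 3.52% (colon) and 3.01% (small intestine) of all genes. Their median log2 ratio was 0.44, beside 0.37 over all genes. In the ribosomal RNA-depleted pair 0 were higher in colon, beside 7.37% of all genes. In that pair 1, the linker gene Plec, was higher in small intestine, beside 4.16%, and the median was -0.09, beside 0.41. For 14 genes these counts are near the shares over all genes, and nothing is read from them. Dsg2, the desmoglein of simple epithelia, was at 41.1 and 45.5 RPKM and at 97.4 and 180 RPKM, and the hemidesmosomal integrin gene Itga6 at 25.3 and 13.7 RPKM and at 107 and 111 RPKM. Among 13 other intermediate filament genes, 0 of 13 tested in the cDNA fragmented pair were at least 3-fold higher in colon, beside 3.52% of all genes. In the ribosomal RNA-depleted pair 4 of 9 were, namely Vim, Des, Prph and Lmna, beside 7.37% of all genes. All 13 ratios were nevertheless above 1 in the cDNA fragmented pair, with a median log2 ratio of 1.33, beside 0.37 over all genes. In the ribosomal RNA-depleted pair 6 of the 9 ratios were above 1 and 3 below, Lmnb2 among the latter at 0.467 (interval 0.333 to 0.651). Des, the muscle filament gene, was at 11.8 and 34.4 RPKM in the cDNA fragmented pair and at 36.8 and 241 RPKM in the other, beside the smooth muscle genes given above.

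The profile over the 4 libraries was compared with that of the 3239 genes with at least 100 reads in each, after centring log2 RPKM on its mean, with the largest difference in any library as the distance. Only Krt8, Krt18, Krt19 and Krt20 had enough reads for this. Krt20 had no gene within 0.25, and its nearest were Mdh2 at 0.52, Crip1 at 0.59 and Taldo1 at 0.92. Krt8 had 21 genes within 0.25, led by 0610040J01Rik (0.06), Adipor1 and Sptlc2, Krt18 had 13, led by Gps1 (0.14), Tsc22d1 and Fuca1, and Krt19 had 3, Prkab1 (0.18), Flna and Ralgds. These are descriptions over 4 libraries. No keratin was among the 3 nearest genes of another.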

How the data were processed

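The deposited files hold, per the file headers, positions, strands and color mismatch counts of uniquely placed SOLiD reads, which the authors had matched over 35 colors with at most 3 mismatches to RefSeq exons of mm9 and exon junctions. The tables of exon blocks hold positions, and the deposited reports hold numbers of reads. Counts derived here equalled the reported numbers of unique reads and start points in all 4 libraries. Reads were counted per exon block, allowing 3 bases over a border, and blocks were joined to genes through GENCODE M1. Junction reads were left out of the main values. RPKM was calculated per exonic length and unique reads. Intervals are exact Poisson for RPKM, Clopper-Pearson for ratios and Wilson for shares. A pseudocount of 0.1 RPKM was used for log2 medians. The members and gene lists were chosen with earlier results of these data known, and the small intestine and colon markers were added last. Named genes were the members, the nearest profiles, other keratins reaching 1 RPKM and, per list, the 2 highest genes and the extremes of the cDNA fragmented ratio; lists of other cell types are given by counts and by a few of these, and Plec, Vim, Prph, Sox9, Onecut1, Trp63 and genes at 0 were named after their values were seen. The 3-fold rule and intervals were tested on simulated data. Python 3.11.15, numpy 2.4.6 and scipy 1.17.1 were used. The study's methods name BioScope for matching to the genome; the program behind the deposited exon matching is not given in the sources used here.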

Additional observations from a re-analysis of the deposited data

How the results depend on the processing

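The limits are the single library per group, the low depth of Krt7 and Krt23 in the ribosomal RNA-depleted libraries (27 to 53 reads, 21 in small intestine for Krt23) and ratios near the 3-fold limit. Scaling by median of ratios left 0 keratins 3-fold higher in colon in both pairs, beside 2.15% and 4.33% of all genes. It left a cDNA fragmented median log2 ratio of 0.50, beside 0.007 over all genes. Scaling to the epithelial list also left 0 in both pairs, beside 1.78% and 4.49% of all genes. The cDNA fragmented median was then 0.31, beside -0.17 over all genes. Counting start points instead of reads gave 0 higher in colon in both pairs, beside 3.87% and 6.70% of all genes. This counting gave 0 higher in small intestine in the cDNA fragmented pair, beside 2.68%, and medians of 0.11 and -0.039. Under it, relative to all start points of the library, Krt8 and Krt19 fell below 1 in the ribosomal RNA-depleted pair, to 0.899 and 0.953. Krt20 in the cDNA fragmented pair reached 0.936. A start point counts once however often it was read. Krt20 had 3353 and 3286 of them there, with 1658 positions on each strand. Hardly any position was left to take, so its 0.936 does not measure a difference in level. The cause of the fall of Krt8 and Krt19 was not tested. Without the last exon block 1 keratin was higher in colon and 0 in small intestine in the cDNA fragmented pair (median 0.84), beside 3.92% and 3.11% of all genes. In the ribosomal RNA-depleted pair 0 were higher in colon without that block, beside 10.5% of all genes. Sense reads alone left 1 in the cDNA fragmented colon (median 0.82), beside 3.84% of all genes. After seeing the data, 2 alternatives were added: positions with no copy gave a cDNA fragmented median of 0.97, and leaving out the 10 most-read start points gave a ribosomal RNA-depleted median of 1.34. Behind that last median, Krt23 moved from 1.48 to 5.27 on the few reads left to it. Mismatches, junction reads, penalty, read minimum and pseudocount kept these counts, although a penalty of 0.1 in place of 1 raised the share of all genes past the limit to 8.68% (colon) and 4.57% (small intestine) in the cDNA fragmented pair and to 14.6% (colon) in the other. Over all alternatives Krt20 stayed between 0.2200 and 0.936 in the cDNA fragmented pair and between 0.141 and 0.311 in the ribosomal RNA-depleted pair, and Krt18 between 1.27 and 2.84. In the same order of pairs Krt7 ranged from 2.30 to 3.69 and from 0.872 to 1.46, Krt8 from 1.001 to 1.66 and from 0.899 to 2.32, Krt19 from 1.13 to 3.33 and from 0.953 to 3.26, and Krt23 from 0.698 to 1.06 and from 1.16 to 5.27. Tissue was not fitted with protocol as a block.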
